A study of Mus musculus with 8 samples.

Results

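A set of 50 genes of mitosis, the spindle and the kinetochore was examined in CD11b+ cells of the brain of young mice after lipopolysaccharide (LPS), a molecule of the bacterial envelope that innate immune cells sense through a Toll-like receptor. The genes were chosen by name for their known roles, with earlier results of these data known. They were matched by the gene name in the scanner files. All 50 were found, on 98 probes, and all 50 passed the filter on dim probes that left 22509 of 36591 genes. Each was well above background on all 8 arrays.

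The 8 samples came from male C57BL/6N mice aged 7 days, taken 24 h after saline or LPS, with 4 samples per treatment. Each sample was 1 tube in which the brains of 2 mice of the same treatment had been dissociated together. CD11b, an integrin chain carried by microglia and other myeloid cells, was the target of the magnetic beads that sorted the cells. The dose and route of LPS are not given in the sources used here, and no genotype other than the strain is named. RNA from each tube was hybridised to 1 single-colour array. All 10 markers of the microglia list were well above background on all 8 arrays.

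Mitosis is driven by cyclin-dependent kinase and its cyclins, which rise before division and are destroyed at anaphase. Kinetochores, built on centromeres, tie chromosomes to the spindle, and a checkpoint holds the cell in metaphase until every chromosome is attached. Many of these genes are transcribed together late in the cell cycle by complexes that hold the factors B-Myb and FoxM1, so in a tissue their mRNAs mark dividing cells. Microglia multiply in the brain in early postnatal life and divide again when activated. In RNA from a pool of sorted cells, more dividing cells and more of these mRNAs per dividing cell cannot be told apart.

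Mitotic genes were higher after LPS in every functional class. Of the 50 genes 49 rose and 0 fell, where 27.8% of all genes tested rose and 21.5% fell (limma, adjusted p of at most 0.05). The median change was 0.95 on the log2 scale, the lower and upper quartiles were 0.76 and 1.04, and the extremes were 0.11 for Cdc25b and 1.52 for Mybl2. Over all 22509 genes the median change was 0.02. In 41 of the 50 genes the change was at or above 0.66, the 90th percentile of all genes, and this count was 39 to 42 when single arrays were left out, 32 with quantile normalization and 36 with the brightness of the arrays as a covariate. Every LPS array lay above every saline array in 49 of the 50 genes, against 25.8% of all genes.

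All levels are log2 processed signal minus the 75th percentile of the array, given for saline and LPS arrays 1 to 4, and all changes are LPS minus saline of these values ± SE with n = 4 arrays per group. The p-values are adjusted over all genes. With 4 arrays per group, precision is limited by that number. Levels of different genes cannot be compared, because each probe has its own response.

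**Figure D1:**
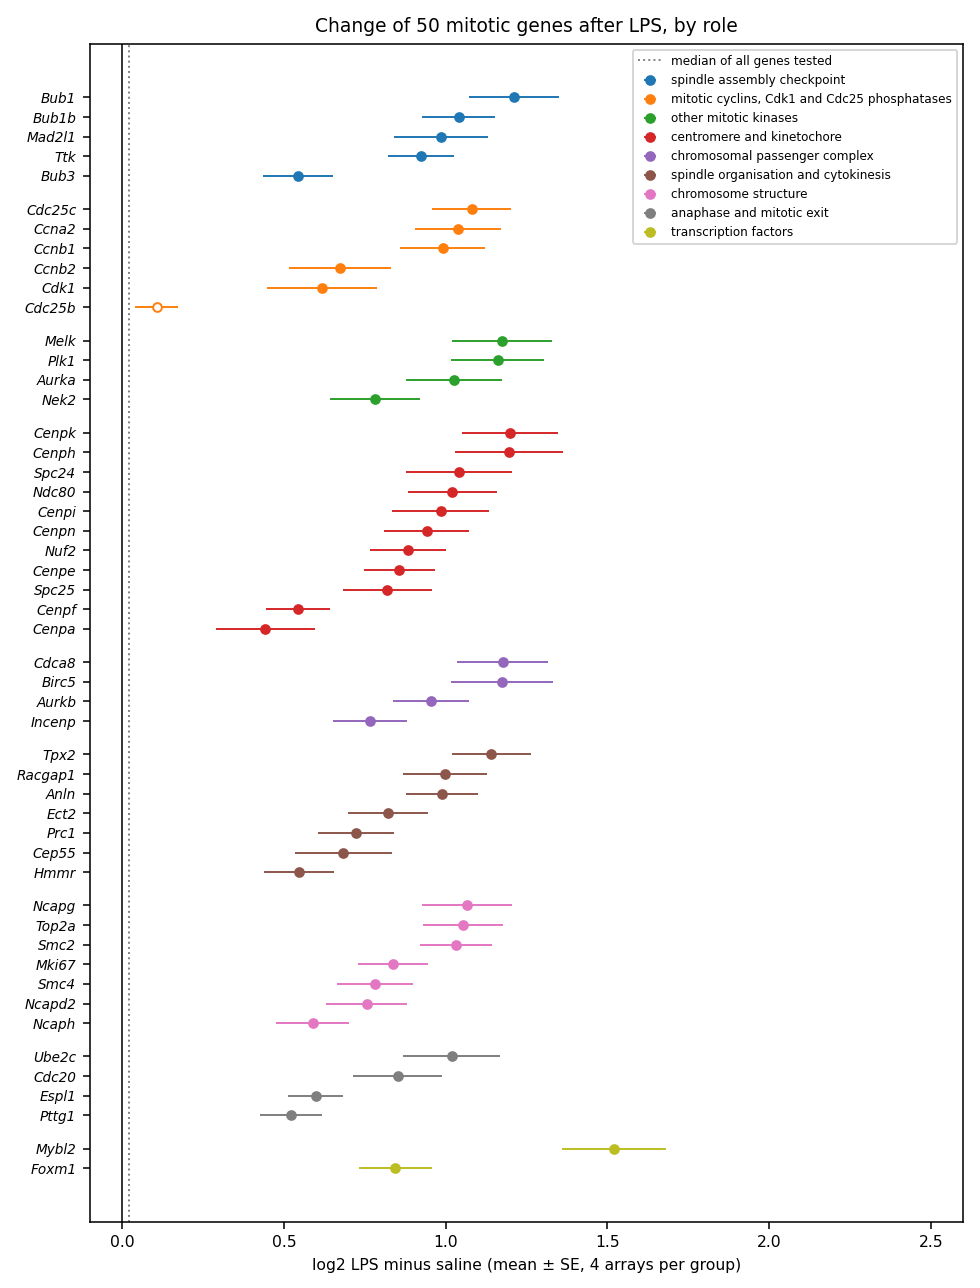
Change of each of the 50 mitotic genes after LPS (log2 LPS minus saline, point and SE, 4 arrays per group), grouped by role, where filled points passed the test and the dotted line is the median of all genes tested. All points lie right of 0, from 0.11 (Cdc25b, open point) to 1.52 (Mybl2).

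The transcription factors of this programme were both higher. Mybl2, which encodes B-Myb, an activator of late cell cycle genes, read 1.61, 1.67, 1.43 and 1.45 on the saline arrays and 3.34, 3.09, 2.59 and 3.22 on the LPS arrays. The groups lay far apart, LPS array 3 was the lowest of the LPS arrays, and the change of 1.52 ± 0.16 (adjusted p = 0.000593) was the largest among the 50 genes. Foxm1, the forkhead factor that acts with B-Myb on mitotic promoters, read 2.28, 2.24, 2.21 and 2.17 on the saline arrays and 3.28, 3.21, 2.79 and 2.99 on the LPS arrays. It rose by 0.84 ± 0.11 (adjusted p = 0.00114), again with no overlap of the groups.

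The promoters of the 50 genes were searched for the elements known from this class of genes. The shares found describe the list and do not depend on the change after LPS. The cell cycle genes homology region, which the B-Myb complexes bind, was searched as TTTGAA or TTCGAA, and the box bound by the factor NF-Y as CCAAT, on both strands of the RefSeq windows of GRCm38.p6 from 250 bases before to 50 bases after the gene start. TTCGAA reads the same on either strand, and none of the 3 motifs contains another. Below, a homology region means only a match to TTTGAA or TTCGAA anywhere in the window, also after the start. Binding was not examined. Windows were present for 42 of the 50 genes, and those of Aurkb, Ccna2, Cdc25c, Foxm1, Incenp, Smc4, Spc24 and Tpx2 were not used here. A homology region stood in 29 of the 42 genes (69.0%), against 21.7% of 27025 genes with a window and 17.4% of the 13481 of them that were tested on the arrays. CCAAT stood in 32 of 42 (76.2%), against 41.1% and 42.2%. Both elements were present in 61.9% of the genes, against 8.61% of all genes with a window and 7.02% of those tested. In a list of other mitotic genes, both were present in 38.3% of 60.

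The windows of 7 genes are shown over the 150 bases before the start, 5′ to 3′ on the strand of the gene, because they span the patterns seen and the largest and smallest changes. Capitals mark the motifs, which read ATTGG for CCAAT and TTCAAA for TTTGAA where they lie on the opposite strand.

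Cdk1, chr10:69352913-69353062, minus strand: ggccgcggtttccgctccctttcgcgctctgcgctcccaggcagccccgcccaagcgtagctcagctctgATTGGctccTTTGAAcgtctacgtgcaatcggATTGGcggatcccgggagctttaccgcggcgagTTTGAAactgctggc
Cdc20, chr4:118437344-118437493, minus strand: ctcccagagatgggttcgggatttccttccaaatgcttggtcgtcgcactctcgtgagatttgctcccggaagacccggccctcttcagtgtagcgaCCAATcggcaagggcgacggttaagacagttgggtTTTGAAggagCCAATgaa
Ccnb2, chr9:70421555-70421704, minus strand: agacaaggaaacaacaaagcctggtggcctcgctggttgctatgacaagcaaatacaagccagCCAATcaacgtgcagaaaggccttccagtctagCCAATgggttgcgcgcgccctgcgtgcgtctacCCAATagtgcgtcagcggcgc
Top2a, chr11:99024190-99024339, minus strand: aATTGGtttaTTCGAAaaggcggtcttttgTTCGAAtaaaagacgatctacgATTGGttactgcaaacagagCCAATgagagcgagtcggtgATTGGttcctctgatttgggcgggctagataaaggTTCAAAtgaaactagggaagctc
Ube2c, chr2:164769779-164769928, plus strand: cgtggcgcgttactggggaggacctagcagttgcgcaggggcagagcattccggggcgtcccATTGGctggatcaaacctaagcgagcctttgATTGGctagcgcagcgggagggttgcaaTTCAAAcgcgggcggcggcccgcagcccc
Mybl2, chr2:163054485-163054634, plus strand: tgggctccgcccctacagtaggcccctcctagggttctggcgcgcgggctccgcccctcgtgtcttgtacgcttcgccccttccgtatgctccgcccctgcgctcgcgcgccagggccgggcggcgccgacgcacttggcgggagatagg
Cdc25b, chr2:131186798-131186947, plus strand: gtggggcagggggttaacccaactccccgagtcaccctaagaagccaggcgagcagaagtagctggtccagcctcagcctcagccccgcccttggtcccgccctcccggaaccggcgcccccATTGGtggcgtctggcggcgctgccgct

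In Cdk1 the homology regions began 71 and 15 bases before the start, with CCAAT boxes on the opposite strand at 80 and 48 bases. Cdc20 held TTTGAA at 18 bases and CCAAT at 53 and 8. Ccnb2 had CCAAT boxes at 87, 54 and 21 bases, and its homology regions lay outside the stretch shown. Ube2c had TTTGAA on the opposite strand at 29 bases, with CCAAT boxes on that strand at 88 and 57. Top2a carried TTCGAA at 140 and 120 bases, TTTGAA on the opposite strand at 23, and CCAAT at 78 or, on the opposite strand, at 149, 98 and 58. Mybl2, the gene with the largest change, had none of these letters in its window, and Cdc25b, with the smallest, had CCAAT at 28 bases and TTCGAA after the start. The median change was 0.85 over the 29 genes with a homology region (0.11 to 1.21) and 0.99 over the 13 without one (0.52 to 1.52), which is a description with no test.

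The mitotic cyclins, Cdk1 and the phosphatases that activate it rose in 5 of 6 genes, with a median of 0.83. Ccnb1, the cyclin B that carries Cdk1 into mitosis, read 3.18, 3.02, 2.89 and 2.97 on the saline arrays and 4.28, 4.15, 3.74 and 3.86 on the LPS arrays. It rose by 0.99 ± 0.13 (adjusted p = 0.00108), and its other 3 probes changed by 0.99, 1.02 and 1.09. Ccna2, the cyclin of S phase and mitotic entry, rose by 1.04 ± 0.13, and Ccnb2 by 0.67 ± 0.16. Cdk1, the kinase itself, read 1.17, 1.04, 1.22 and 0.71 on the saline arrays and 1.91, 1.84, 1.27 and 1.58 on the LPS arrays. Its groups came close, with LPS array 3 at 1.27 and saline array 3 at 1.22, and the change was 0.62 ± 0.17 (adjusted p = 0.0173), while a second probe for this gene changed by 0.08. Cdc25c, a phosphatase that activates Cdk1 at mitotic entry, read 0.72, 0.80, 0.80 and 0.81 on the saline arrays and 2.09, 2.07, 1.63 and 1.65 on the LPS arrays and rose by 1.08 ± 0.12 (adjusted p = 0.000716). Cdc25b, a related phosphatase that acts early at the centrosome, stood apart with -1.08, -1.04, -0.97 and -1.03 on the saline arrays and -0.95, -0.84, -0.92 and -0.99 on the LPS arrays. Its groups overlapped, and its change of 0.11 ± 0.07 (adjusted p = 0.207) did not pass the test. The change of Cdc25b was -0.05 when the percentile was taken over the probes detected on every array, a scaling that moves every gene by -0.155. It was 0.19 with quantile normalization, or 0.12 when normexp background correction preceded that, and past the test in both.

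The other mitotic kinases rose in all 4 genes, with a median of 1.09. Plk1, the polo-like kinase needed from mitotic entry to cytokinesis, read 3.71, 3.60, 3.47 and 3.56 on the saline arrays and 5.003, 4.98, 4.42 and 4.58 on the LPS arrays. Every LPS array exceeded the highest saline array by 0.71 or more, and the change was 1.16 ± 0.14 (adjusted p = 0.000924). Melk, a kinase abundant in dividing cells, had the largest change of the class with 1.36, 1.30, 0.998 and 1.09 on the saline arrays and 2.63, 2.56, 2.00 and 2.25 on the LPS arrays, a rise of 1.17 ± 0.16 (adjusted p = 0.0011). Aurka, which matures the centrosomes, rose by 1.03 ± 0.15. Nek2, which splits the centrosomes, had the smallest change of the class and read -0.95, -1.04, -0.94 and -1.14 on the saline arrays and 0.04, -0.03, -0.50 and -0.45 on the LPS arrays, a rise of 0.78 ± 0.14 (adjusted p = 0.00303). Its LPS values formed a higher pair on arrays 1 and 2 and a lower pair on arrays 3 and 4, all above saline.

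All 5 genes of the spindle assembly checkpoint rose, with a median of 0.99. Bub1, the kinase that recruits checkpoint proteins to the kinetochore, had the largest change and read 1.15, 1.13, 0.95 and 0.99 on the saline arrays and 2.54, 2.40, 1.89 and 2.23 on the LPS arrays. It rose by 1.21 ± 0.14 (adjusted p = 0.000751). Bub1b, the BubR1 subunit of the inhibitor of anaphase, rose by 1.04 ± 0.11, Mad2l1, which holds Cdc20 in that inhibitor, by 0.99 ± 0.14, and Ttk, the Mps1 kinase that starts the signal, by 0.92 ± 0.10. Bub3, a partner of Bub1 that also acts outside mitosis, had the smallest change and read 4.91, 4.83, 4.67 and 4.68 on the saline arrays and 5.54, 5.38, 5.11 and 5.25 on the LPS arrays. Its groups did not overlap, and it rose by 0.54 ± 0.11 (adjusted p = 0.00488).

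Centromere and kinetochore genes rose in 11 of 11, with a median of 0.94. Cenpk, a subunit of the inner kinetochore network on the centromere, had the largest change and read 0.34, 0.42, 0.16 and 0.18 on the saline arrays and 1.77, 1.57, 1.08 and 1.47 on the LPS arrays. It rose by 1.20 ± 0.15 (adjusted p = 0.000895). Its partners in that network rose too, Cenph by 1.19 ± 0.17, Cenpi by 0.98 ± 0.15 and Cenpn by 0.94 ± 0.13. The 4 subunits of the Ndc80 complex, the main grip on microtubules, rose by 1.02 ± 0.14 (Ndc80), 0.88 ± 0.12 (Nuf2), 1.04 ± 0.16 (Spc24) and 0.82 ± 0.14 (Spc25). The motor Cenpe rose by 0.86 ± 0.11, and Cenpf, a large coiled-coil protein of the outer kinetochore, by 0.54 ± 0.10.

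Cenpa, the histone variant that marks the centromere, had the smallest change of this class and the least secure call among the 49. It read 1.46, 1.56, 1.43 and 1.33 on the saline arrays and 2.15, 2.17, 1.61 and 1.61 on the LPS arrays. LPS arrays 3 and 4, both at 1.61, lay just above the highest saline array at 1.56, and the change was 0.44 ± 0.15 (adjusted p = 0.0409). The call of Cenpa ended without LPS array 1 (0.35), LPS array 2 (0.35) or saline array 1 (0.45), 2 (0.48), 3 (0.44) or 4 (0.40). It also ended in 6 of the 15 settings that kept all arrays, in which its change was 0.21 to 0.44.

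The chromosomal passenger complex, which corrects wrong attachments and then guides cytokinesis, rose in all 4 subunits, with a median of 1.06. Aurkb, its kinase, read 0.41, 0.43, 0.47 and 0.30 on the saline arrays and 1.53, 1.57, 1.10 and 1.23 on the LPS arrays and rose by 0.96 ± 0.12 (adjusted p = 0.0009). Birc5, survivin, which brings the complex to the centromere, read 4.79, 4.82, 4.54 and 4.61 on the saline arrays and 6.16, 6.09, 5.50 and 5.70 on the LPS arrays. It rose by 1.17 ± 0.16 (adjusted p = 0.00115), and the lowest LPS array exceeded the highest saline array by 0.68. Cdca8, borealin, had the largest change of the subunits and read 4.06, 4.08, 3.89 and 3.90 on the saline arrays and 5.45, 5.34, 4.84 and 5.01 on the LPS arrays, a rise of 1.18 ± 0.14 (adjusted p = 0.000849). Incenp, the scaffold that activates Aurkb, had the smallest and read 5.22, 5.26, 5.20 and 5.11 on the saline arrays and 6.17, 6.09, 5.66 and 5.94 on the LPS arrays, a rise of 0.77 ± 0.11 (adjusted p = 0.00155). None of the 4 had overlapping groups.

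Genes of spindle organisation and cytokinesis rose in 7 of 7, with a median of 0.82. Tpx2, which activates Aurka on spindle microtubules, had the largest change and read 1.52, 1.59, 1.35 and 1.38 on the saline arrays and 2.80, 2.79, 2.36 and 2.46 on the LPS arrays. It rose by 1.14 ± 0.12 (adjusted p = 0.000605). Racgap1 and Ect2, which set the plane of cleavage through RhoA, rose by 0.997 ± 0.13 and 0.82 ± 0.12, and Anln, the anillin scaffold of the contractile ring, by 0.99 ± 0.11. Prc1, which bundles the midzone microtubules, rose by 0.72 ± 0.12, and Cep55, which recruits the machinery of abscission, by 0.68 ± 0.15. Hmmr, a spindle protein that also binds hyaluronan, had the smallest change and read 1.28, 1.29, 1.50 and 1.23 on the saline arrays and 2.01, 2.04, 1.68 and 1.77 on the LPS arrays, a rise of 0.55 ± 0.11 (adjusted p = 0.00452). Saline array 3 was its highest saline array at 1.50, below the lowest LPS array at 1.68.

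Genes of chromosome structure rose in 7 of 7, with a median of 0.84. Mki67, the Ki-67 protein that coats mitotic chromosomes and is the common marker of proliferating cells, read 5.27, 5.16, 5.18 and 5.19 on the saline arrays and 6.25, 6.19, 5.84 and 5.87 on the LPS arrays. Its saline arrays lay close together and the lowest LPS array was 0.57 above the highest of them, a change of 0.84 ± 0.11 (adjusted p = 0.00104). Top2a, the topoisomerase that untangles sister chromatids, read 3.83, 3.86, 3.72 and 3.66 on the saline arrays and 5.07, 4.97, 4.55 and 4.71 on the LPS arrays and rose by 1.05 ± 0.12 (adjusted p = 0.000802). The condensin genes rose as well. Ncapg had the largest change and read 2.69, 2.70, 2.50 and 2.55 on the saline arrays and 3.93, 3.86, 3.32 and 3.59 on the LPS arrays, a rise of 1.07 ± 0.14 (adjusted p = 0.00105). Ncaph, the kleisin subunit, had the smallest and read 3.48, 3.49, 3.30 and 3.42 on the saline arrays and 4.28, 4.04, 3.79 and 3.94 on the LPS arrays, a rise of 0.59 ± 0.11 (adjusted p = 0.00392). The condensin ATPases Smc2 and Smc4 rose by 1.03 ± 0.11 and 0.78 ± 0.12, and the regulatory subunit gene Ncapd2 by 0.76 ± 0.13.

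Genes of anaphase and mitotic exit rose in all 4, with a median of 0.72. Ube2c, the ubiquitin-conjugating enzyme of the anaphase-promoting complex, had the largest change and read 2.89, 2.80, 2.63 and 2.67 on the saline arrays and 4.04, 3.99, 3.41 and 3.62 on the LPS arrays. It rose by 1.02 ± 0.15 (adjusted p = 0.00149). Cdc20, the activator of that complex and the target of the checkpoint, rose by 0.85 ± 0.14, and Espl1, the protease separase that cuts cohesin, by 0.60 ± 0.08. Pttg1, securin, the inhibitor of separase, had the smallest change and read 3.70, 3.87, 3.72 and 3.81 on the saline arrays and 4.30, 4.39, 4.07 and 4.43 on the LPS arrays. It was the 1 gene with its highest value on LPS array 4, and it rose by 0.52 ± 0.10 (adjusted p = 0.00345).

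Other genes of mitosis, from a list of 72 written for comparison, also with earlier results of these data known, moved the same way. Of the 71 measured 71 rose, with a median of 0.75 and a range of 0.25 to 1.57. Ska2 did not pass the filter. The largest changes were in Cenpw, a histone-fold protein of the inner kinetochore (1.57 ± 0.17), Trip13, an ATPase that takes the checkpoint complex apart (1.16 ± 0.14), and Cks1b, a small partner of cyclin-dependent kinases (1.16 ± 0.15).

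Lists of genes whose products work with those of the mitotic genes, many of them also used outside mitosis, had smaller medians. Of 15 subunits and co-activators of the anaphase-promoting complex 7 rose and 0 fell, with a median of 0.27, led by Anapc5 (0.66 ± 0.11), Anapc1 (0.51 ± 0.10) and Anapc11 (0.50 ± 0.11). Of 12 cohesin genes 5 rose and 1 fell, with a median of 0.18. Esco2, the acetyltransferase that fixes cohesion in S phase, rose by 0.70 ± 0.13, Smc1a, a core subunit, by 0.41 ± 0.09 and Rad21, the kleisin, by 0.33 ± 0.11. Esco1, the related acetyltransferase active through the cell cycle, was lower, with a change of -0.28 ± 0.09. Of 11 genes of the MuvB core and the repressive DREAM complex 7 rose and 0 fell, with a median of 0.45, led by Tfdp1 (0.78 ± 0.13), E2f4 (0.59 ± 0.11) and Rbl1 (0.54 ± 0.13). Rbl2, a pocket protein of resting cells, was -0.16 ± 0.08, which did not pass the test. The differences between these lists were not tested.

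**Figure D2:**
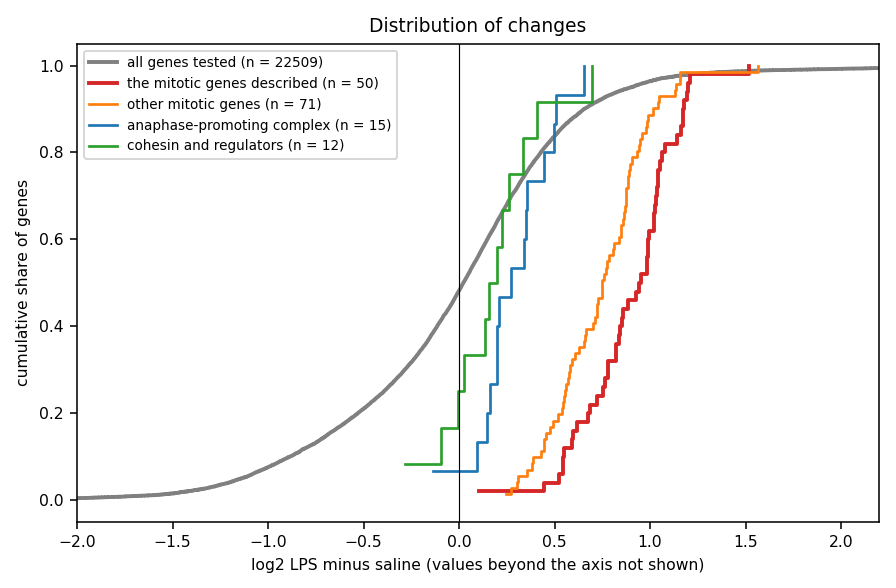
Cumulative share of genes (vertical axis) by change after LPS (horizontal axis, log2 LPS minus saline) for all 22509 genes tested, the 50 mitotic genes, 71 other mitotic genes, 15 genes of the anaphase-promoting complex and 12 of cohesin. The 50 genes have a median of 0.95 and the other mitotic genes one of 0.75, against 0.27 and 0.18 for the latter lists and 0.02 for all genes.

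The size of the rise differed between LPS samples in the same way for nearly all of the 50 genes. Set against the mean of the saline arrays, the median of the 50 genes was 1.15 on LPS array 1, 1.08 on LPS array 2, 0.65 on LPS array 3 and 0.84 on LPS array 4. LPS array 3 was the lowest of the LPS arrays in 48 of the 50 genes, and LPS array 1 or 2 the highest in 49. The saline arrays differed less, with medians of 0.07, 0.07, -0.10 and -0.07 around their mean. Over all genes tested the arrays stood in the same order within each treatment, with smaller values. These medians were 0.063, 0.055, 0.006 and 0.033 on LPS arrays 1 to 4 and 0.039, 0.040, -0.049 and -0.007 on saline arrays 1 to 4. How many of all genes were lowest or highest on these LPS arrays was not counted. In all 50 genes the SD over LPS arrays was larger than that over saline arrays. The share of all genes with a larger SD over LPS arrays was not counted, so this is not shown to be particular to the 50.

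**Figure D3:**
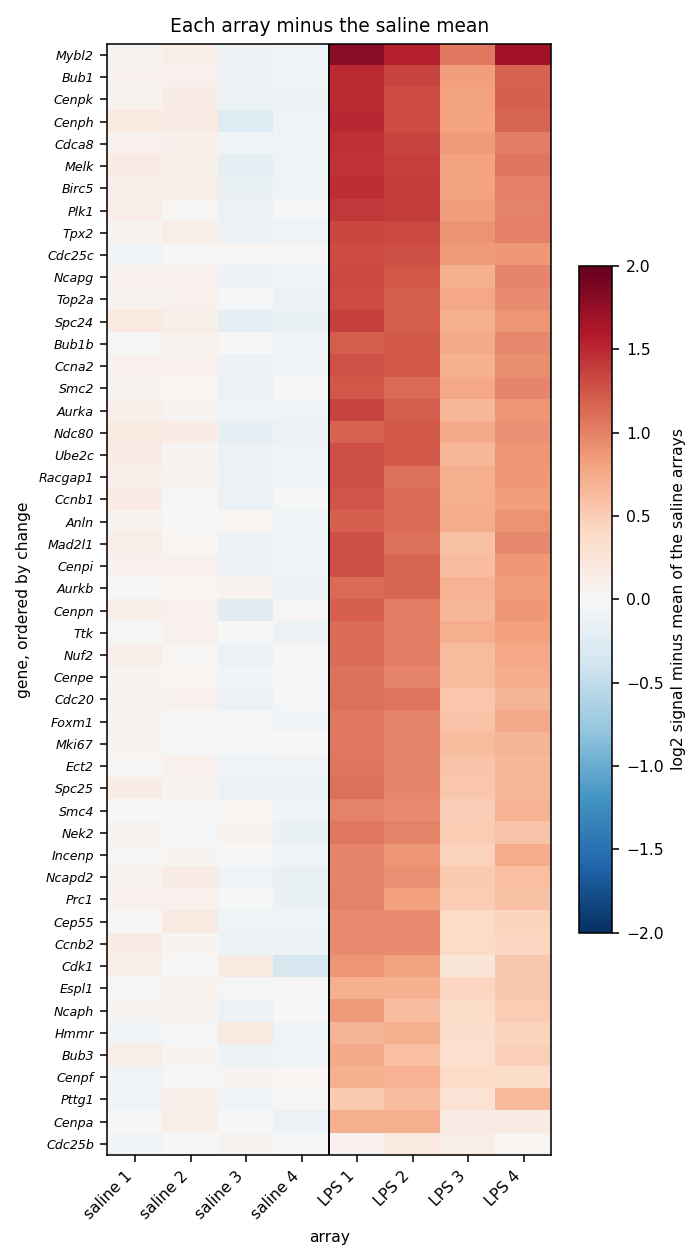
Level of each of the 50 genes on each array minus the mean of the 4 saline arrays (colour, log2), with genes in rows ordered by their change and arrays in columns. LPS array 3 is the palest of the LPS columns (median 0.65) and LPS array 1 the darkest (1.15), while the saline columns stay near 0 with medians of -0.10 to 0.07.

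The brightness of the arrays moved with this pattern. The median processed signal was 11.7, 13.1, 17.3 and 13.8 on LPS arrays 1 to 4 and 15.9, 15.5, 21.5 and 18.2 on saline arrays 1 to 4, so that within each treatment the dimmer arrays were those with the higher mitotic values. With this signal as a covariate 45 of the 50 genes rose and 0 fell, where 18.4% of all genes rose, and their median was 0.68. The calls of Ccnb2 (0.39), Cdk1 (0.41), Cenpa (0.21) and Cep55 (0.42) ended in that fit. LPS arrays 1, 2 and 4 were dimmer than every saline array, and LPS array 3 was brighter than saline arrays 1 and 2 only. Brightness and treatment therefore cannot be fully told apart. The part of brightness in the size of the rise was not tested beyond this covariate. Percentages of probes well above background were 58.6% to 63.2% on LPS and 61.9% to 66.0% on saline arrays.

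Position on the slide was recorded by column and row. The slide paired 1 saline with 1 LPS array in every column, and within the 4 columns the median difference of the 50 genes was 1.09, 1.03, 0.71 and 0.88, with all 50 above 0 in each. With the column as a block 49 genes rose, where 33.3% of all genes rose. Within the 2 slide rows the median was 0.96 and 0.94. With the row as a block 48 genes rose, where 25.2% of all genes rose, and the call of Cenpa ended.

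Several probes for 1 gene gave a check within the arrays. Of 98 probes for the 50 genes 94 were kept, and 85 of these rose and 0 fell, against 25.7% of all 35494 kept probes that rose. Of 28 genes with more than 1 kept probe 21 had every probe higher. The others were Cdc25b, Cdca8, Cdk1, Ect2, Prc1, Pttg1 and Ttk. In Cdca8, Ect2, Prc1, Pttg1 and Ttk the probes not called passed the filter but read low, with mean levels of -4.51 to -2.33. The probes used above for these genes had mean levels of -0.06 to 4.57. Some probes that read as low were called, 1 for Anln (mean level -3.28, change 1.30) and 1 for Cep55 (-2.78, 0.75). Why the probes of a gene differed was not tested. For Cdk1 the probe used above (mm9, chr10:68805423-68807832, an interval of 2410 bases for a probe of 60) rose by 0.62 ± 0.17, whereas the probe at chr10:68797987-68798046 changed by 0.08 ± 0.11 (adjusted p = 0.580). On that probe LPS arrays 1 and 2 lay above the saline arrays, and LPS arrays 3 and 4 below or among them. For Cdc25b the order was the reverse. The probe used above (chr2:131023376-131023435) changed by 0.11 ± 0.07, and that at chr2:131018363-131018422 by 0.79 ± 0.18 (adjusted p = 0.00842). The latter read low, with a mean level of -3.61 against -0.98. Securin had a second probe, with a mean level of -3.14, that changed by -0.04 ± 0.12. Averaging the probes of each gene ended the calls of Cdk1 (0.35) and Pttg1 (0.24) and gave one to Cdc25b (0.45). For Pttg1 and Cdc25b these averages include the probes that read low. The 3 probes of Hmmr all rose, by 0.55, 0.95 and 1.08. Which exon or untranslated region a probe lies in was not analysed here.

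**Figure D4:**
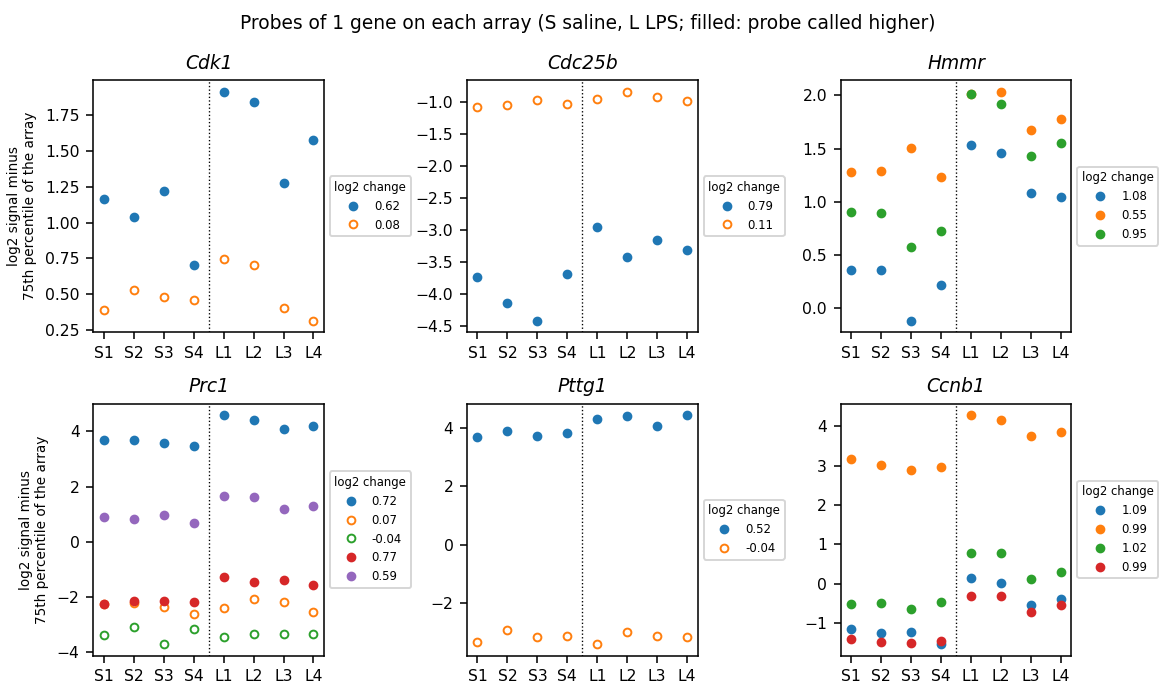
Level of each kept probe (log2 signal minus the 75th percentile of the array) on saline arrays S1 to S4 and LPS arrays L1 to L4 for 6 genes, with the change of each probe in the key and filled points for probes that rose. The probes of Ccnb1 rose by 0.99 to 1.09 and those of Hmmr by 0.55 to 1.08, whereas Cdk1 and Cdc25b each had 1 probe that rose and 1 that did not pass the test.

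Markers of cell types that the sorted fraction could hold moved too. Among monocyte markers 5 of 6 rose, with a median of 1.77, led by Ly6c2 (2.11 ± 0.20) and Plac8 (2.06 ± 0.17). Their summed level, in units of the 75th percentile of the array and weighted towards the brightest probes, was 12.4 to 16.6 on saline arrays and 54.2, 60.8, 44.2 and 78.5 on LPS arrays 1 to 4. Among the LPS arrays the monocyte sum and the mitotic values were both lowest on array 3, while the monocyte sum was highest on array 4 and the mitotic values on array 1. Among 12 markers of neutrophils and their precursors 2 rose, S100a8 (1.59 ± 0.29) and S100a9 (1.38 ± 0.29), and 1 fell, with sums of 193 to 281 on saline and 262 to 395 on LPS arrays but a median change of -0.05. Mpo, Elane and Prtn3, granule proteins of dividing granulocyte precursors, changed by -0.54 ± 0.50, -0.12 ± 0.15 and 0.32 ± 0.27, none past the test. They were well above background on all 8 arrays, but the saline arrays differed widely, with an SD of 0.99 for Mpo.

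The microglia list summed to 1668 to 1996 on saline and 1725 to 1993 on LPS arrays, with 1 of 10 genes higher, Aif1 (0.92 ± 0.16), and 5 lower, led by P2ry12 (-1.55 ± 0.20). Border macrophage markers fell in 5 of 9, with sums of 666 to 854 on saline and 436 to 590 on LPS arrays. Among 6 lymphocyte markers measured of 8 listed 3 rose and 1 fell, with sums of 1.87 to 3.01 and 3.52 to 4.44, and Ncr1 was above background on no array.

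Marker sums of erythroid cells and of the neural, glial and vascular cells listed were not higher after LPS. No marker of oligodendrocyte precursors rose and 4 of 6 measured fell, with sums of 2.34 to 3.34 on saline and 1.25 to 1.87 on LPS arrays, and Neu4 was above background on no array. None of the neural progenitor markers rose, 1 of 5 measured fell, and the sums overlapped at 0.89 to 2.04 and 0.45 to 1.80, with Neurog2 and Atoh1 above background on no array. Erythroid markers rose in none and fell in 3 of 4 measured (13.1 to 28.8 and 5.43 to 8.30), with Klf1 above background on no array. Astrocyte markers fell in 6 of 7 (24.6 to 31.5 and 14.4 to 19.1) and endothelial and pericyte markers in 6 of 8 (19.7 to 28.4 and 13.5 to 18.1). Among the LPS arrays, array 3, with the lowest mitotic values, had the highest sums for border macrophages (590) and oligodendrocyte precursors (1.87). It was also highest for neural progenitors (1.80), astrocytes (19.1) and endothelial cells and pericytes (18.1). Its sums were the lowest for microglia (1725), monocytes (44.2) and lymphocytes (3.517), and at neither end for neutrophils (394) and erythroid cells (8.07). Saline array 3 had the lowest mitotic median of its group. Its border macrophage sum (666) was the lowest there, and its astrocyte sum (29.7) was not the highest. In the other lists at an end on LPS array 3, saline array 3 stood at the same end of its group. The part of any of these cells in the rise of the mitotic genes was not tested.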

How the data were processed

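For each tube, 50 ng of RNA were labelled with Cy3, per the labels' protocols. Spots were quantified by Agilent Feature Extraction 12.0.3.1 (submitters' processing notes). The deposited files give spot intensity, background-corrected per the file headers. The authors' deposited value table is on a log2 scale and correlated at 0.999 or more with the scanner values scaled to the 75th percentile and centred per probe. The steps behind it are not stated in the labels.

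Control and outlier spots were left out, and 6 of 56605 probes without a usable spot on some array. Probes were named by RefSeq accession (35405), symbol (9124), synonym (25) or the file (12051). Values were log2 processed signal minus the 75th percentile of the array. Probes well above background on at least 4 arrays were kept (35494), and the probe with the highest mean signal stood for a gene. Differences were fitted over all genes with limma 3.58.1 (lmFit, eBayes; R 4.3.3), and p-values were adjusted by Benjamini-Hochberg. The method was tested on simulated data with independent noise for each gene, so shifts shared by the genes of an array were not covered. Replicate numbers follow accession order. Tubes were separate pools of mice.

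The members and lists were chosen with earlier results of these data known. All members are accounted for. Values on every array are given for the largest and smallest change of each role and for Mki67, Top2a, Cdk1, Ccnb1, Plk1, Aurkb, Birc5, Foxm1 and Mybl2. Other lists are given by counts, median and up to 3 genes per direction. Alternatives covered scaling, background, filter, probes, variance, slide position, array brightness, the deposited values and each array left out. Figures were drawn with matplotlib 3.10.9.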

Additional observations from a re-analysis of the deposited data

Results flagged for a closer look

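Among 100 groups of 4 arrays examined (saline and LPS for each of the 50 genes), 1 held an array far from the others. For Cdc25c, saline array 1 read 0.717 against 0.797 to 0.807 on the other saline arrays, and its LPS arrays all lay higher. Chance alone sets apart about 1 in 20 such groups.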

How the results depend on the processing

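Under 23 alternatives, 15 of which kept all arrays, 45 to 49 of the 50 genes rose and 0 fell, and 44 of the 49 calls held in each. Their median change moved beyond the spread between LPS arrays (SD 0.23) in 2 settings, to 0.72 with normexp background and quantile normalization and 0.68 with array brightness (median signal) as a covariate. The cause was not tested. Cdc25b turned to -0.0478, not past the test, when the 75th percentile was taken over the probes detected on every array, which moves every gene by -0.155. Scaling to each array's median gave medians of 1.16 for the 50 genes and 0.24 for all genes, and the percentile over probes detected on every array gave 0.79 and -0.13. All genes changed numbered 11104, of which 56.4% were higher, or 72.8% and 40.1% under these scalings. Leaving out each array in turn gave 8730 to 13262 changed genes, 48 to 49 of the 50 higher and medians of 0.87 to 1.04. The labels give no replicate numbers by which to pair tubes. A fit with the slide column as a block, which sets 1 saline against 1 LPS array by position, changed no call among the 50 genes. With normexp 50 was added to every signal, which makes log2 changes smaller where the signal is low.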
